A study of Mus musculus with 8 samples.

Results

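Genes of oxidative phosphorylation were examined in hematopoietic stem cells from mouse bone marrow, by complex and by the genome that encodes them. The members are the gene symbols that begin with Nduf, Uqcr, Cox4 to Cox8 or Atp5, the genes Sdha to Sdhd, and the mt- symbols of the protein-coding genes of mitochondrial DNA, without pseudogenes marked -ps. They had to reach 1 TPM (a share of each library's transcripts that is corrected for length and sums to 1000000) in at least 2 of the 8 libraries. The members were thus chosen by symbol and by TPM in all 8 libraries together, and by no difference between genotypes, although the set as a whole was taken up with earlier results of these data known. This gave 101 members of 33641 symbols, of which 16064 were tested. The members comprise 77 nuclear subunit genes, 11 nuclear genes of assembly or related factors and 13 genes of mitochondrial DNA. Of the 106 matching symbols, 5 missed the level set by the rule. Cox6a2, Cox8c and Ndufa4l2, which encode isoforms known from muscle, testis and hypoxic cells respectively, were listed at 0 throughout, while Cox8b and Cox7b2 reached 1.20 and 4.25 TPM in a single library. Just inside it lay the heart and muscle isoform Cox7a1 and the lung isoform Cox4i2, whose second-highest libraries held 4.42 and 5.86 TPM.

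Oxidative phosphorylation takes electrons from NADH at complex I and from succinate at complex II, passes them through complex III to complex IV, where oxygen is reduced, and uses the proton gradient made on the way to drive ATP synthase, complex V. All complexes but the second are mosaics, with a few core subunits encoded by mitochondrial DNA and the rest encoded in the nucleus, translated in the cytosol and imported. Hematopoietic stem cells at rest are known for their reliance on glycolysis, with respiration becoming important as they divide and differentiate.

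The mice were C57BL/6 and carried Mx1-Cre, a recombinase whose promoter responds to interferon and is active in many cell types besides blood stem cells. All groups, wild type included, received the interferon inducer polyI:C, a synthetic RNA duplex, as 6 intraperitoneal injections of 10 mg/kg on alternate days, and cells were taken 1 week after induction. The genotypes were Mx1-Cre wild type, Scribble-/-, Taz-/-;Yap1-/- (Yap1 Taz null) and Scribble-/-;Taz-/-;Yap1-/- (triple null), with 2 libraries each. The Scribble protein organises cell polarity, and YAP1 and TAZ are transcriptional coactivators that Hippo signalling holds back. The labels call the samples of a genotype experimental replicates and give neither age nor number of mice, so the spread that p-values measure here may be technical.

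Transcripts of the targeted genes did not mark the genotypes labelled as lacking them. Scrib was 8.19 and 9.29 TPM in wild type, 6.25 and 7.63 TPM in Scribble null, 7.98 and 7.32 TPM in Yap1 Taz null, and 14.5 and 7.54 TPM in triple null. Yap1 lay between 2.00 and 6.63 TPM. Wwtr1, which encodes TAZ, was 5.32 and 3.91 TPM in Scribble null and 0.730 to 1.92 TPM in all other libraries, wild type among them. The labels could thus not be checked from these totals, and whether a deletion of some exons left them in place was not tested. The 8 stem cell markers summed to between 1648 and 2110 TPM, all of them present, with Kit higher and Ly6a lower in all 6 null libraries than in wild type (384 to 532 against 268 and 281 TPM, and 148 to 255 against 359 and 417 TPM). Cd48 and Flt3, which mark progenitors rather than stem cells, were at 1.21 to 3.3 TPM and 6.51 to 12.3 TPM. The 8 granulocyte and monocyte markers summed to 331 and 397 TPM in wild type and to between 350 and 666 TPM in the null libraries, carried by Prtn3 and Lyz2, with S100a8 and Ly6g listed at 0 throughout, and Prtn3 was above wild type in all 6 (163 to 425 against 118 and 141 TPM). The 5 T and NK cell markers summed to 8.76 and 8.93 TPM in wild type and 12.3 to 42.9 TPM in the null libraries, with Klrb1c at 30.9 and 15.0 TPM in Scribble null and Trbc1 at 0 throughout. The 4 endothelial markers summed to 54.6 and 54.3 TPM in wild type and 59.9 to 86.3 TPM in the null libraries, with none at 0 throughout. The 5 megakaryocyte markers summed to 1084 and 1210 TPM in wild type and to between 329 and 521 TPM in the null libraries. None of them was at 0, and only Pf4, a platelet chemokine, was below wild type in all 6, at 94.9 to 222 TPM against 816 and 958 TPM. The part of these markers in the results below was not tested. Transcripts of the Y-linked gene Eif2s3y were 4.16 and 4.63 TPM in the Yap1 Taz null libraries and at least 45.8 TPM elsewhere, so a difference in sex and the genotype cannot be told apart in comparisons that use them. Each library sums to 1000000 TPM by construction, so its depth is not known and a larger share for some genes lowers the others. Under median-of-ratios scaling, which centres on the typical gene, all changes from wild type are shifted downwards, and the median over all genes tested moves from 0.14, 0.14 and 0.12 (log2, Scribble null, Yap1 Taz null and triple null against wild type) to 0.01, 0.00 and -0.00.

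Nuclear subunit transcripts took up a smaller share of the library in every null genotype. Their sum was 17216 and 17192 TPM in wild type, 13232 and 12989 TPM in Scribble null, 14197 and 13740 TPM in Yap1 Taz null, and 14637 and 14985 TPM in triple null. All 6 null libraries lay below both wild-type libraries, with the Scribble null pair lowest. Transcripts of mitochondrial DNA went the other way on this scale. They summed to 25644 and 26717 TPM in wild type, 32945 and 37763 TPM in Scribble null, 29516 and 31617 TPM in Yap1 Taz null, and 30515 and 27973 TPM in triple null. All 6 null libraries lay above wild type. The mitochondrial sum was therefore 1.49 and 1.55 times the nuclear one in wild type, 2.49 and 2.91 times in Scribble null, 2.08 and 2.30 times in Yap1 Taz null, and 2.08 and 1.87 times in triple null. This ratio is taken within a library, so scaling does not enter it. It was also higher in all 6 null libraries when the abundant Atp5b was left out, at 2.47 to 3.80 against 1.88 and 2.04. The mitochondrial sum, and so the ratio, leaves out near-identical nuclear copies of some of its genes. Among them, the mt-Co1 copy Gm29216 held 3843 to 6493 TPM. The part of the division of reads between genes and copies in these sums was not tested. In bulk RNA, fewer cells with a high level and less RNA per cell cannot be told apart.

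**Figure D1:**
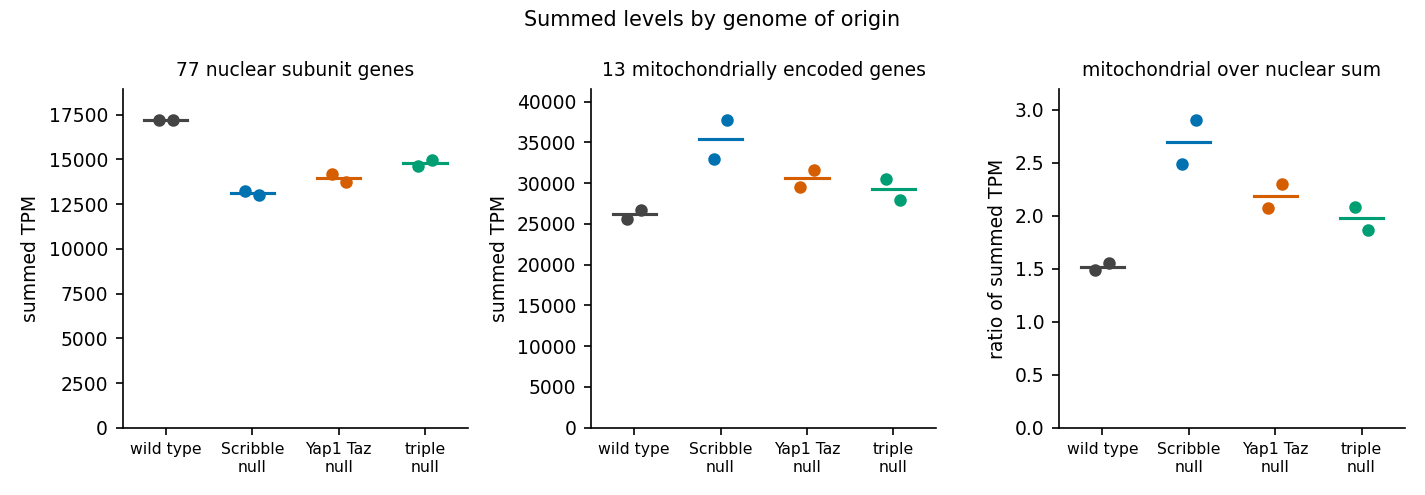
Summed TPM of the 77 nuclear subunit genes (left) and of the 13 mitochondrially encoded genes (middle), and the ratio of the mitochondrial to the nuclear sum (right), by genotype. Points are libraries, 2 per genotype, and bars their means. The nuclear sum is lower and the ratio higher in all 6 null libraries than in both wild-type libraries.

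Gene by gene, the nuclear decrease was broad and small. The median log2 change of TPM + 1 over the 77 nuclear subunits was -0.38 in Scribble null, -0.34 in Yap1 Taz null and -0.22 in triple null against wild type, where the median of all genes tested was above 0. The estimate was negative for 71, 70 and 66 of the 77. In Scribble null, both libraries lay below both wild-type libraries for 52 (67.5%), where 15.7% of all genes tested did so. In Yap1 Taz null this held for 50 (64.9%, against 14.5% of all genes) and in triple null for 44 (57.1%, against 14.2%). With the wild-type libraries shared by these comparisons, 35 of 77 were lower in all 6 null libraries, against 4.87% of all genes tested, and no nuclear subunit was higher in all 6, against 13.1%. Under median-of-ratios scaling the medians were -0.54, -0.50 and -0.35, and 47 of 77 were lower in all 6, against 8.82% of all genes.

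**Figure D2:**
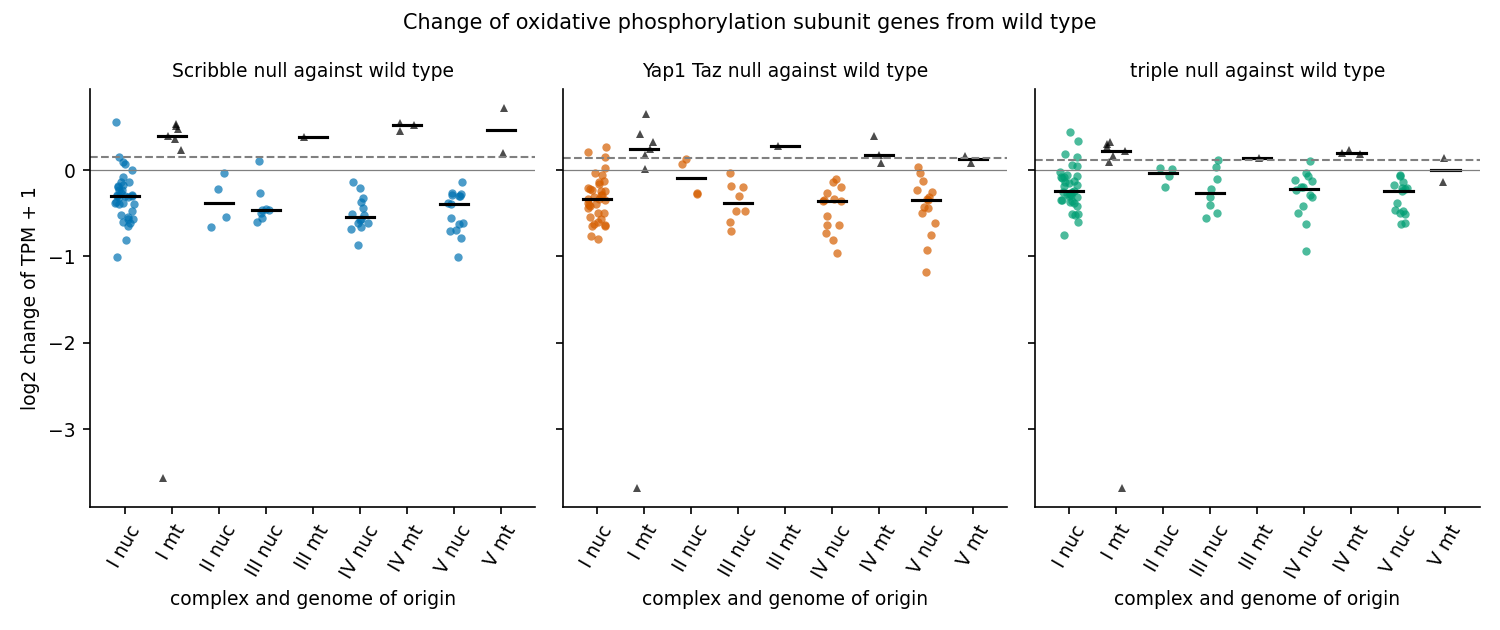
Log2 change of TPM + 1 against wild type for each subunit gene, by complex and genome of origin (nuc, nuclear, circles; mt, mitochondrial DNA, triangles), with 1 panel per null genotype. Bars are medians, the solid line is no change and the dashed line is the median of all genes tested. Nuclear points lie mostly below 0 and mitochondrial points mostly above it, with mt-Nd3 alone near the bottom of each panel.

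Few single genes passed the test, which was limma on log2(TPM + 1) with Benjamini-Hochberg adjustment over all 16064 genes at 0.05. Of the 101 members, 4 passed it in Scribble null against wild type, against 1.3% of all genes tested (0.71% lower and 0.591% higher). These were Atp5g1 and mt-Nd3, lower, and mt-Atp6 and mt-Co2, higher. Under median-of-ratios scaling the 4 became 7, all lower, with Atp5g1 and mt-Nd3 in both sets and Atp5g3, Atp5o, Cox5a, Ndufa1 and Ndufa2 added. That scaling shifts all changes from wild type downwards, and the 1.3% of all genes belongs to the TPM scale only. In Yap1 Taz null 4 passed, against 0.99% of all genes (0.517% lower and 0.473% higher), namely Atp5e, Cox5a, Cox7a2 and mt-Nd3, all lower. In triple null against wild type mt-Nd3 alone passed, where 0.579% of all genes did (0.355% lower and 0.224% higher). Unadjusted p-values under 0.05 were found for 35, 29 and 15 of the 77 nuclear subunits, and for 18.2%, 14.3% and 10.9% of all genes tested. With either wild-type library left out no member passed in any of these comparisons, nor did any in Yap1 Taz null or triple null with either library of that genotype left out, while the estimates of the genes called kept their sign.

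ATP synthase was the complex with the largest share of nuclear genes below wild type in both libraries of each null genotype. All 15 of its nuclear subunits lay below wild type in both Scribble null libraries, and 12 did so in each of the other null genotypes (100%, 80% and 80%, against 15.7%, 14.5% and 14.2% of all genes), with medians of -0.39, -0.35 and -0.25. Across the 6 null libraries 11 of 15 were lower throughout (4.87% of all genes), and 15 of 15 under median-of-ratios scaling (8.82%). The nuclear sum of the complex was 7490 and 8001 TPM in wild type, 6002 and 5903 TPM in Scribble null, 6669 and 6707 TPM in Yap1 Taz null, and 6711 and 6786 TPM in triple null.

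Its rotor ring is built from subunit c, and Atp5g1, Atp5g2 and Atp5g3 encode the same mature protein with different import sequences. Their upstream regions are shown because the 3 genes feed 1 protein, and differences between their changes were not tested. Each line gives the 250 bases before the RefSeq start of the gene (build GRCm38.p6, 5′ to 3′ on the gene's strand), with capitals for a match to the palindromic site of NRF1, a factor known to act on respiratory chain genes.
Atp5g1, chr11:96075632-96075881, minus strand: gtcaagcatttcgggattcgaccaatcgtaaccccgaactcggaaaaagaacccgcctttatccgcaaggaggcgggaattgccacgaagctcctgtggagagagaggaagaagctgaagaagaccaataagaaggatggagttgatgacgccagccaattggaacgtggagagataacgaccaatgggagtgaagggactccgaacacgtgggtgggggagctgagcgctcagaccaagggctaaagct
Atp5g2, chr15:102671048-102671297, minus strand: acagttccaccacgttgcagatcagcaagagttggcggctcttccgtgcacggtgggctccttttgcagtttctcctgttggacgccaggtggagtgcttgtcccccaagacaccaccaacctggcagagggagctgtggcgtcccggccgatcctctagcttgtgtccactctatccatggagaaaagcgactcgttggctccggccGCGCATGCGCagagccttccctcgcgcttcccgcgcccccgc
Atp5g3, chr2:73911327-73911576, minus strand: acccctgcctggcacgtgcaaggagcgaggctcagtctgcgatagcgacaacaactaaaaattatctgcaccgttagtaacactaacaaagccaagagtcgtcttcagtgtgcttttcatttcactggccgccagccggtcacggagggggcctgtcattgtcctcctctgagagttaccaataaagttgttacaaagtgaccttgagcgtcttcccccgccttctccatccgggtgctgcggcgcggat

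Atp5g1 (chromosome 11, 96068852 to 96075670) fell in Scribble null. It was 281 and 268 TPM in wild type, 134 and 139 TPM in Scribble null, 199 and 239 TPM in Yap1 Taz null, and 183 and 208 TPM in triple null. All null libraries were below wild type and the Scribble null pair was below the rest, with a log2 change of -1.0 (SE 0.134, limma adjusted p = 0.0152). In the other null genotypes the changes from wild type did not pass. Atp5g3 was 312 and 290 TPM in wild type, 168 and 205 TPM in Scribble null, 197 and 198 TPM in Yap1 Taz null, and 179 and 214 TPM in triple null. Its groups did not overlap with wild type either, and its log2 changes of -0.69, -0.61 and -0.62 did not pass (limma adjusted p = 0.0730, 0.128 and 0.164), although the one in Scribble null did under median-of-ratios scaling (-0.85, adjusted p = 0.0358). Atp5g2, whose upstream region holds the NRF1 match, was 314 and 308 TPM in wild type and 223 to 301 TPM in the null libraries. Its log2 changes were -0.28, -0.13 and -0.13, none of which passed. Atp5g2 thus made up 34.6% and 35.6% of the subunit c transcripts in wild type and 38.1% to 46.0% in the null libraries, while their sum went from 907 and 866 TPM to between 525 and 705 TPM. A processed copy of Atp5g1 that is near-identical over its length, Gm10039, was listed at 0 in all libraries but Yap1 Taz null 2, at 2.33 TPM.

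**Figure D3:**
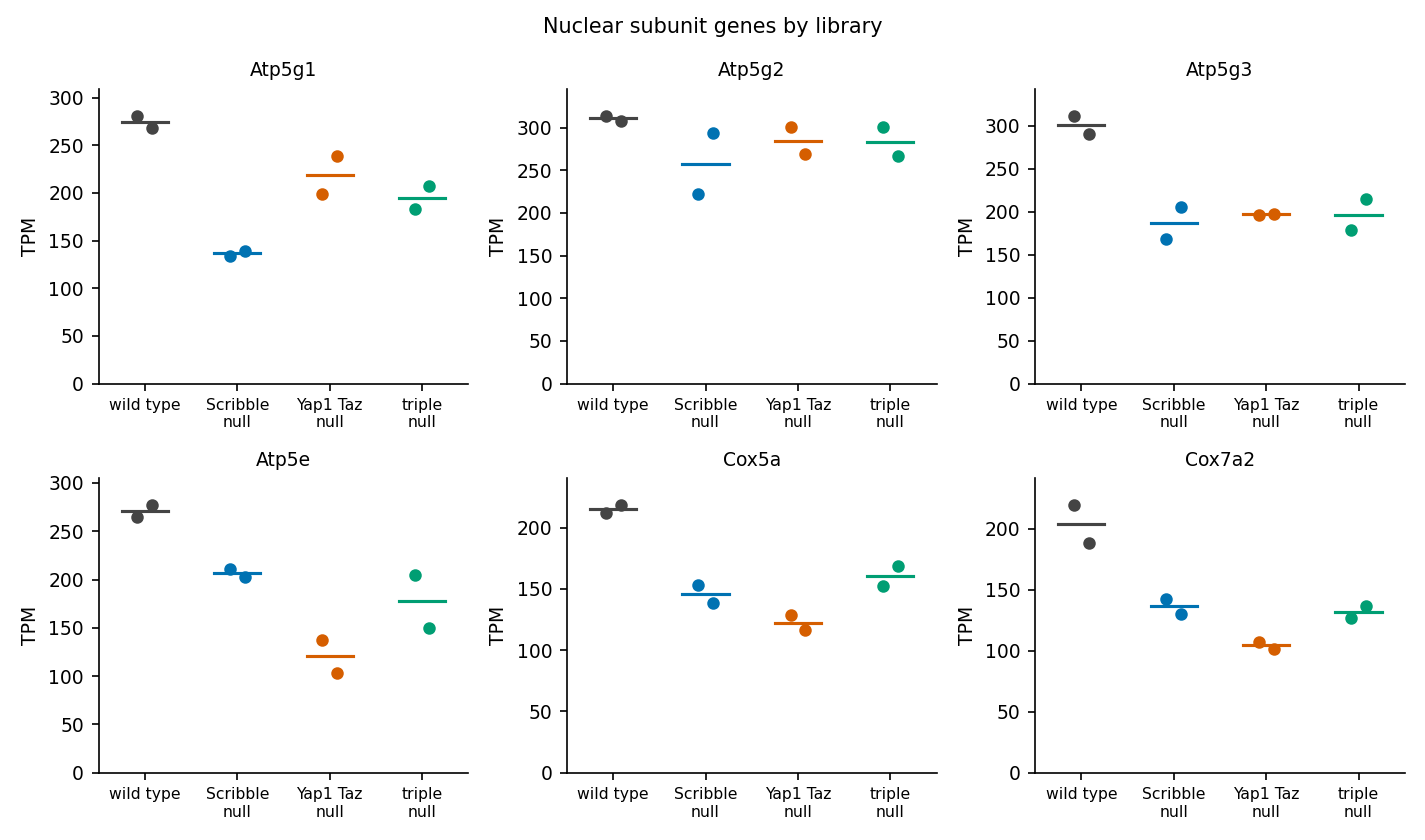
TPM of the 3 subunit c genes and of the nuclear subunit genes that passed the test in Yap1 Taz null, by genotype. Points are libraries, 2 per genotype, bars are means and each axis starts at 0. Atp5g1 is lowest in Scribble null, Atp5e, Cox5a and Cox7a2 are lowest in Yap1 Taz null, and Atp5g2 differs least from wild type.

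Atp5e (chromosome 2, 174461072 to 174464105), the epsilon subunit of the central stalk, fell in Yap1 Taz null. It was 265 and 277 TPM in wild type, 211 and 202 TPM in Scribble null, 138 and 104 TPM in Yap1 Taz null, and 205 and 150 TPM in triple null. The Yap1 Taz null libraries were the lowest, and the log2 change from wild type was -1.17 (SE 0.187, limma adjusted p = 0.0331). Atp5b, the catalytic beta subunit, was by far the most abundant nuclear member. It was 3602 and 4075 TPM in wild type, 3237 and 3056 TPM in Scribble null, 3556 and 3904 TPM in Yap1 Taz null, and 3620 and 3655 TPM in triple null. Outside Scribble null its range overlapped with wild type. Atp5b was 9.08 to 13 times its partner in the catalytic ring, Atp5a1, and 20.9% to 28.4% of the whole nuclear subunit sum. Members of the peripheral stalk and membrane part that were lower in all 6 null libraries without passing include Atp5k, Atp5o, Atp5j and Atp5j2, at log2 changes of -0.78, -0.62, -0.55 and -0.71 in Scribble null. Atp5o passed there under median-of-ratios scaling (limma adjusted p = 0.0339), and Atp5j2 passed in Yap1 Taz null with either Scribble null library left out (-0.93, limma adjusted p = 0.0380 and 0.0358).

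Complex IV, cytochrome c oxidase, had the largest nuclear median difference in Scribble null. Its 14 nuclear subunits, Ndufa4 included, had medians of -0.54, -0.36 and -0.22, and 10, 9 and 9 of them were below wild type in both libraries of the genotype (71.4%, 64.3% and 64.3%, against 15.7%, 14.5% and 14.2% of all genes). Cox5a (chromosome 9, 57521274 to 57532426), which sits next to the catalytic core, fell in Yap1 Taz null. It was 212 and 218 TPM in wild type, 153 and 139 TPM in Scribble null, 129 and 116 TPM in Yap1 Taz null, and 153 and 169 TPM in triple null. The groups did not overlap with wild type, and the log2 change in Yap1 Taz null was -0.81 (SE 0.126, limma adjusted p = 0.0300). Cox7a2 (chromosome 9, 79755361 to 79759878), the isoform of subunit VIIa found in most tissues, fell there too. It was 219 and 188 TPM in wild type, 143 and 130 TPM in Scribble null, 107 and 102 TPM in Yap1 Taz null, and 127 and 137 TPM in triple null. The log2 change in Yap1 Taz null was -0.95 (SE 0.133, limma adjusted p = 0.0172).

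For most paired isoforms of complex IV, 1 dominated. Cox4i1 was at 285 to 409 TPM, against 1.22 to 6.24 TPM for Cox4i2. Cox7a2 at 102 to 219 TPM stood against 0.926 to 8.98 TPM for Cox7a1. Cox6b1 and the testis isoform Cox6b2 were closer, at 69.6 to 176 TPM and 56.7 to 115 TPM. The other expressed isoforms of such positions were Cox6a1 at 272 to 450 TPM, Cox8a at 257 to 501.5 TPM and Ndufa4 at 222 to 420 TPM, and Cox6a1 and Ndufa4 were lower in all 6 null libraries. Cox7c, a small subunit near the core, was the most abundant nuclear gene of the complex, at 571 and 526 TPM in wild type and 399 to 560 TPM in the null libraries. Its ranges overlapped and no change passed.

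Complex I, the NADH dehydrogenase, had 36 nuclear subunits with medians of -0.30, -0.34 and -0.25, and none passed the test. Both libraries were below wild type for 18, 23 and 17 of them (50%, 63.9% and 47.2%, against 15.7%, 14.5% and 14.2% of all genes), and 13 were lower in all 6 null libraries (4.87% of all genes). Ndufa1, a small subunit of the membrane arm, was among them, at a log2 change of -0.60 in Scribble null (limma adjusted p = 0.0949, and 0.0450 under median-of-ratios scaling). Ndufs5 had overlapping groups and -0.28 in Scribble null, but -2.12 in the whole-series table (limma adjusted p = 0.0481). Its near-identical copy BC002163 held 29.9 and 32.1 TPM in Scribble null and at most 6.12 TPM elsewhere. Ndufa2, an accessory subunit of the matrix arm, was 193 and 157 TPM in wild type, 88.1 and 84.1 TPM in Scribble null, 94.0 and 131 TPM in Yap1 Taz null, and 139 and 106 TPM in triple null. Its log2 change of -1.01 in Scribble null had a limma adjusted p of 0.0656, and it passed under median-of-ratios scaling (adjusted p = 0.0397). Ndufb9, the most abundant nuclear gene of the complex, was 239 and 206 TPM in wild type and 128 to 236 TPM in the null libraries, with overlap. The core subunit Ndufs3 had the highest estimates in the other direction, 0.55 in Scribble null and 0.44 in triple null, without passing. Its 68.7 and 96.4 TPM in wild type lay below 126 and 114 TPM in Scribble null.

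Complex II, which is wholly nuclear and also serves the citric acid cycle, differed least outside Scribble null. Medians over Sdha, Sdhb, Sdhc and Sdhd were -0.38, -0.09 and -0.03. The flavoprotein Sdha was 174 and 160 TPM in wild type and 158 to 179 TPM in the null libraries. Its log2 changes of -0.03, 0.07 and -0.07 had 95% intervals of -0.30 to 0.24, -0.19 to 0.34 and -0.34 to 0.19. Sdhd alone of the 4 was lower in all 6. Complex III, the cytochrome bc1 complex, had 8 nuclear subunits with medians of -0.46, -0.38 and -0.26, and Uqcr11, Uqcrc1, Uqcrc2 and Uqcrh were lower in all 6. Its hinge protein Uqcrh, the most abundant, was 564 and 387 TPM in wild type, 349 and 311 TPM in Scribble null, 315 and 261 TPM in Yap1 Taz null, and 309 and 328 TPM in triple null. The null libraries were all below wild type, whose own pair lay far apart, and no change passed.

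Assembly and related factors lay near no change. Medians over these 11 genes were 0.10, 0.00 and 0.04, none was lower in all 6 null libraries on the TPM scale, and none passed the test. Their levels were also lower, between 12.2 and 38.2 TPM on average for the complex I factors against a median of 91.1 TPM for its nuclear subunits. Atp5s, which encodes coupling factor B, was 11.4 and 12.7 TPM in wild type and 16.3 to 23.7 TPM in the null libraries. The complex I methyltransferase Ndufaf7 was 7.94 and 9.75 TPM in wild type and 10.2 to 15.9 TPM in the null libraries. Both were higher in all 6 null libraries, 2 of 11 (18.2%) where 13.1% of all genes tested were, a share near the background. Under median-of-ratios scaling 1 of the 11 was higher and 1 lower in all 6 (9.09% each). Of all genes tested, 7.12% were higher and 8.82% lower on that scale, so both shares are near the background. Cox7a2l, a factor linked to the supercomplex of complexes III and IV, stayed at 314 to 399 TPM with overlapping groups.

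Of the 13 genes of mitochondrial DNA, all but mt-Nd3 had estimates above 0 in Scribble null and Yap1 Taz null, as did all but mt-Nd3 and mt-Atp6 in triple null. Under median-of-ratios scaling 0, 3 and 2 of the other 12 had negative estimates. Their medians without mt-Nd3 were 0.46, 0.21 and 0.19, and 0.31, 0.05 and 0.06 under median-of-ratios scaling, so on that scale only the Scribble null value departs far from 0. Both libraries were above wild type for 10, 9 and 7 of 13, against 33.2%, 32% and 30.9% of all genes. Among those that did not pass, mt-Cytb, the cytochrome b of complex III, had log2 changes of 0.38, 0.28 and 0.14, and mt-Atp8, a small subunit of ATP synthase, 0.20, 0.09 and 0.14. For the complex I genes the changes were 0.53, 0.32 and 0.16 for mt-Nd5 and 0.39, 0.01 and 0.10 for mt-Nd6, which alone of the 13 is read from the other strand. Above wild type in all 6 were mt-Co2, mt-Co3, mt-Nd1, mt-Nd2 and mt-Nd4, 5 of 13 where 13.1% of all genes were, and on the median-of-ratios scale 1 of 13, where 7.12% were.

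In Scribble null, 2 of them passed the test on the TPM scale. Mt-Co2 (chrM:7013-7696, plus strand), the copper-binding subunit of complex IV that takes electrons from cytochrome c, was 4929 and 4597 TPM in wild type, 6836 and 7081 TPM in Scribble null, 5460 and 5307 TPM in Yap1 Taz null, and 5540 and 5303 TPM in triple null. The Scribble null pair was above the rest, with a log2 change of 0.55 (limma adjusted p = 0.0374). Mt-Atp6 (chrM:7927-8607, plus strand), the channel subunit of ATP synthase, was 2325 and 1868 TPM in wild type, 3383 and 3470 TPM in Scribble null, 2441 and 2226 TPM in Yap1 Taz null, and 1958 and 1839 TPM in triple null. The log2 change in Scribble null was 0.72 (limma adjusted p = 0.0415), and the other genotypes overlapped with wild type. Neither passed under median-of-ratios scaling, at 0.39 and 0.56. Both genes have near-identical nuclear copies in the files, and summed with them neither passed, at 0.49 and 0.46 (limma adjusted p = 0.0651 and 0.121). The copy of mt-Atp6, Gm10925, held 1181 to 2722 TPM, and a copy of mt-Co1, Gm29216, held 3843 to 6493 TPM. The part of the division of reads between genes and copies in these values was not tested, and both calls were lost with any 1 of the 8 libraries left out.

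**Figure D4:**
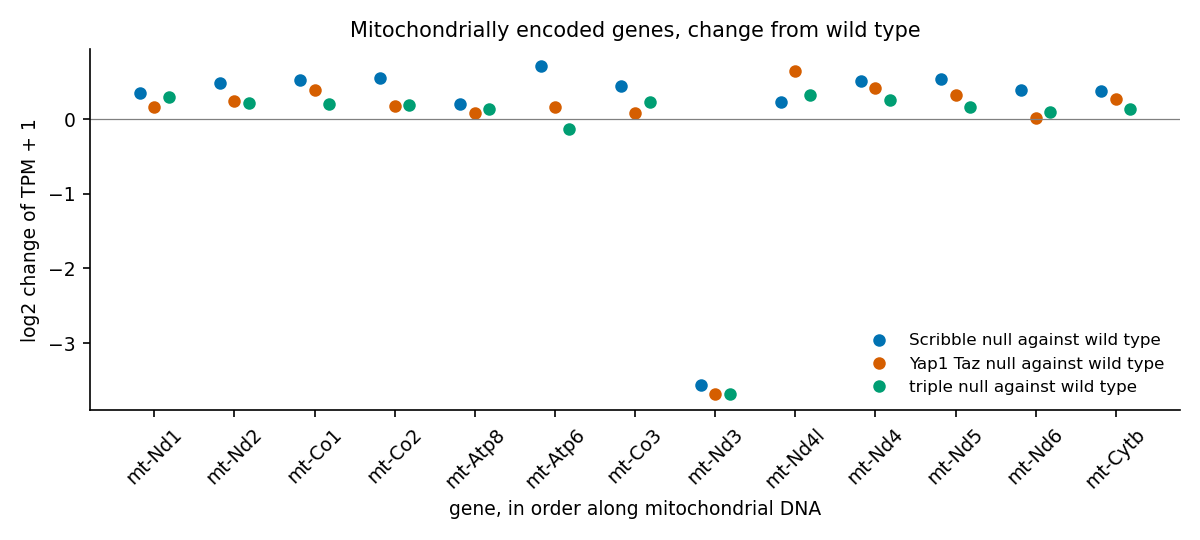
Log2 change of TPM + 1 against wild type for the 13 protein-coding genes, in their order along mitochondrial DNA. Points are the 3 null genotypes. Only mt-Nd3 lies far from 0, between mt-Co3 and mt-Nd4l.

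Mt-Nd3 (chrM:9459-9806, plus strand), a small core subunit of complex I whose mobile loop lies at the ubiquinone site, fell in all null genotypes. It was 261 and 257 TPM in wild type, 11.9 and 36.4 TPM in Scribble null, 22.0 and 16.9 TPM in Yap1 Taz null, and 26.0 and 14.3 TPM in triple null. No null library came near wild type, and the null genotypes overlapped with each other. Log2 changes were -3.57, -3.68 and -3.68 (limma adjusted p = 0.0139, 0.0116 and 0.0153). Its neighbours on the same primary transcript did not follow, with log2 changes of 0.45, 0.09 and 0.23 for mt-Co3 and 0.23, 0.64 and 0.33 for mt-Nd4l. Within a library mt-Nd3 was 0.176 and 0.174 times mt-Co3 in wild type and 0.0065 to 0.0165 times in the null libraries.

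A near-identical copy of mt-Nd3 lies in the nuclear genome. The unprocessed pseudogene Gm28438 (chromosome 1, 24612775 to 24613119, minus strand, GRCm38) differs from the first 345 of the 348 bases of mt-Nd3 by 1 substitution, T3C, with positions counted from 1 at the 5′ end of the mt-Nd3 transcript. The first 60 bases of both are shown with that base in capitals, since reads from elsewhere in the transcript could come from either gene.
mt-Nd3, chrM:9459-9518, plus strand: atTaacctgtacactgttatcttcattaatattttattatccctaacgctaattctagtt
Gm28438, chr1:24613060-24613119, minus strand: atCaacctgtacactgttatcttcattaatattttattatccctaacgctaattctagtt

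Gm28438 was listed at 0 in both wild-type libraries, at 18.2 and 14.5 TPM in Scribble null, 15.6 and 27.7 TPM in Yap1 Taz null, and 10.3 and 21 TPM in triple null. It was thus present in all null libraries and in no wild-type library, the reverse of mt-Nd3. The sum of both genes was 261 and 257 TPM in wild type, 30.1 and 50.8 TPM in Scribble null, 37.6 and 44.6 TPM in Yap1 Taz null, and 36.3 and 35.3 TPM in triple null. The decrease therefore held for the sum, with log2 changes of -2.69, -2.63 and -2.82 (limma adjusted p = 0.0015, 0.00165 and 0.00126). In the whole-series table that the authors also deposited, mt-Nd3 alone gave -2.59, -2.46 and -2.75. With either wild-type library left out the changes were between -3.55 and -3.69 and no longer passed, and in Yap1 Taz null and triple null leaving out either library of the genotype lost the call too. How reads that fit both genes were assigned is not given in the sources used here, and its part in this result was not tested.

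**Figure D5:**
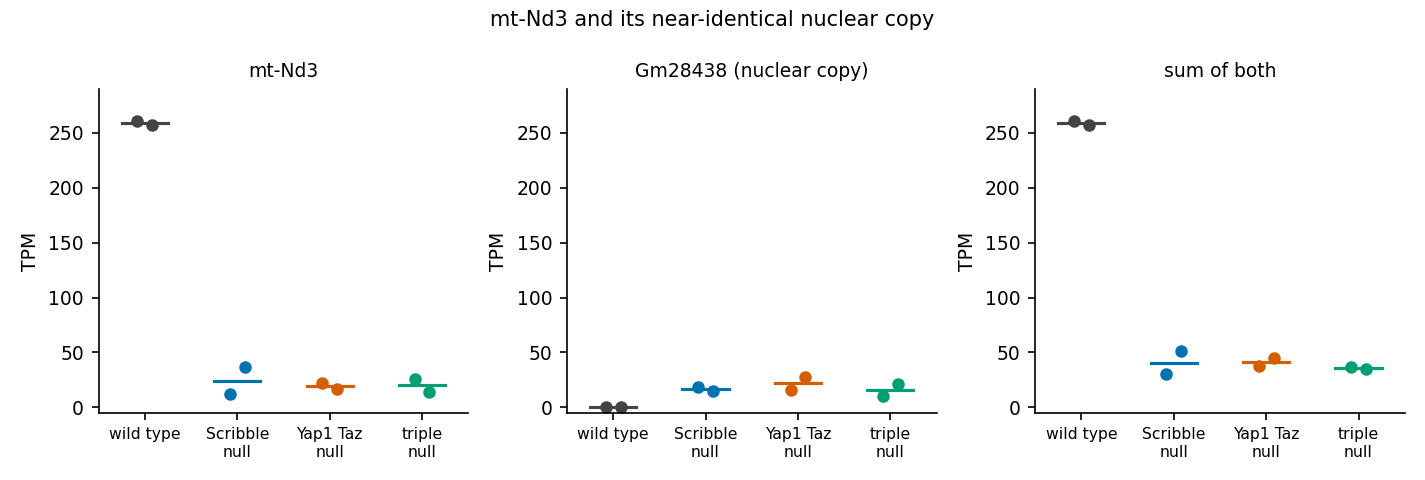
TPM of mt-Nd3 (left), of its nuclear copy Gm28438 (middle) and of their sum (right), by genotype, on 1 scale. Points are libraries, 2 per genotype, and bars their means. Mt-Nd3 is near 260 TPM in wild type and at most 36.4 TPM in the null libraries, the copy is 0 in wild type only, and the sum is at most 50.8 TPM in the null libraries.

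Within complexes that draw on both genomes, the balance differed in the same direction. For complex IV the mitochondrial sum was 2.67 and 3.17 times the nuclear sum in wild type, 5.39 and 6.33 times in Scribble null, 4.37 and 4.93 times in Yap1 Taz null, and 4.25 and 3.62 times in triple null. For complex I it was 1.54 and 1.62 times in wild type, 2.34 and 2.68 times in Scribble null, 2.26 and 2.58 times in Yap1 Taz null, and 2.36 and 1.86 times in triple null. Both ratios were higher in all 6 null libraries.

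Comparisons among the null genotypes addressed whether the genotypes differ from each other, which the comparisons with a shared wild type cannot show. No member passed in triple null against Scribble null, triple null against Yap1 Taz null or Scribble null against Yap1 Taz null, where 0.212%, 0.181% and 0.286% of all genes did in limma, while unadjusted p-values under 0.05 were found for 14, 7 and 12 of 101, and for 9.15%, 8.41% and 10.4% of all genes. The nuclear subunits were higher in both triple null libraries than in both Scribble null libraries for 27 of 77 (35.1%, against 19% of all genes) and lower for 1 (1.3%, against 21.1%), with a median of 0.16. Against Yap1 Taz null, 21 were higher in triple null (27.3%, against 18.7%) and 4 lower (5.19%, against 21.3%), with a median of 0.13. Between Scribble null and Yap1 Taz null the median was -0.06, with 15 of 77 lower (19.5%, against 19.8% of all genes) and 9 higher in Scribble null (11.7%, against 19%). The mitochondrial median was -0.25 in triple null against Scribble null, with 8 of 13 lower and none higher.

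The genes that passed against wild type in a single genotype did not pass between null genotypes. Atp5g1 was lower in Scribble null than in Yap1 Taz null by a log2 change of -0.67 (95% interval -0.98 to -0.36, limma adjusted p = 0.118). Atp5e was higher in Scribble null than in Yap1 Taz null by 0.78 (limma adjusted p = 0.193). The nearest to the threshold was mt-Atp6, at -0.85 in triple null against Scribble null (limma adjusted p = 0.0565), and it passed with quantile normalization. Its copy Gm10925 went the other way by mean, at 2384 TPM in triple null and 1629 TPM in Scribble null. Summed with the copy, mt-Atp6 was 4517 and 4047 TPM in triple null and 4695 and 5416 TPM in Scribble null. The part of the division of reads between gene and copy in this difference was not tested.

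Promoters of the nuclear members were searched on both strands, from 250 bases before to 50 after the start, for sites of factors known to act on these genes. Promoter sequences were at hand for 64 of the 77 nuclear subunit genes and for 10561 of the 16064 genes tested. The NRF1 site, the 10 bases in capitals in Atp5g2 above, was found in 5 of the 64 (7.81%), in 2.24% of the 10561 and in 1.07% of all promoters. The ETS core CCGGAAG, bound by GABP among others, was found in 16 (25%), against 19% and 9.93%. The YY1 site AAGATGGC was found in 9 (14.1%), against 4.94% and 3.19%. The median changes of subunits with and without a match in Scribble null were -0.51 and -0.39 for NRF1, -0.55 and -0.37 for ETS and -0.39 and -0.39 for YY1, and the ranges of holders and others overlapped. In Yap1 Taz null they were -0.35 and -0.35 for NRF1, -0.39 and -0.34 for ETS and -0.33 and -0.35 for YY1, and in triple null -0.38 and -0.24, -0.23 and -0.24, and -0.21 and -0.25.

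Other genes of the pathway that the symbol rule leaves out were read from lists of known function. Of 9 electron carriers and further subunits, none passed the test against wild type, and their medians were -0.57, -0.40 and -0.33, beside -0.38, -0.34 and -0.22 for the nuclear subunits. The difference was not tested. The most abundant, 2010107E04Rik, which encodes a small proteolipid of ATP synthase, was 678 and 699 TPM in wild type and 362 to 504.3 TPM in the null libraries, with no overlap. Among 46 assembly factors, some of them members, none passed and medians were -0.03, -0.08 and 0.02. The most abundant, the complex IV factor Pet100, was at 81.5 to 187.5 TPM with log2 changes of -0.07, -0.38 and 0.20. Among 20 genes for upkeep and expression of mitochondrial DNA the medians were 0.10, 0.13 and 0.01. The most abundant, the single-strand binding protein gene Ssbp1, was at 132 to 169 TPM with changes of 0.11, 0.04 and 0.21. Slirp, which with Lrpprc stabilises mitochondrial messenger RNA, fell in Scribble null and triple null. It was 158 and 143 TPM in wild type, 86.3 and 95.5 TPM in Scribble null, 97.1 and 103 TPM in Yap1 Taz null, and 80.1 and 77.9 TPM in triple null. All null libraries were below wild type, with log2 changes of -0.72, -0.58 and -0.92 (limma adjusted p = 0.0467, 0.112 and 0.0274). Slirp was the only gene of its list that passed, 5% of the list in Scribble null and in triple null, where 1.3% and 0.579% of all genes passed. The alternative fits below were read for members only, so the calls of Slirp were not checked in them. Of 12 regulators of mitochondrial biogenesis none passed, with medians of 0.35, 0.18 and 0.20. The most abundant, Myc, had log2 changes of -0.05, 0.39 and 0.21.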

How the data were processed

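Hematopoietic stem cells of 4 genotypes, 2 libraries each, were profiled by RNA sequencing after Ovation amplification and Nextera XT library preparation, per the labels' protocols. The submitters' processing notes name TopHat and mm10, with a quantifier and annotation not given in the sources used here. The authors deposited TPM per gene symbol for each library, per the file headers, and a whole-series table with no named unit, whose deposited signal values sum to between 818363 and 888261 per column. TPM carries no depth, so precision rests on the 2 libraries of a group.

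From these values log2(TPM + 1) was computed for the 16064 symbols with at least 1 TPM in at least 2 libraries, and limma 3.58.1 (R 4.3.3) was fitted on all 8 libraries with 1 mean per genotype and a mean-variance trend. P-values were adjusted by Benjamini-Hochberg over all these symbols, with a threshold of 0.05. The script was tested on simulated data. Descriptions, promoter searches and plots used Python 3.11.15 with pandas 2.3.3 and matplotlib 3.10.9. Near-identical copies were found with BLAST 2.17.0 between GENCODE M21 transcripts, at 95% identity over 80% of the shorter one, and 22 members had such a copy. Promoters came from RefSeq.

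The members, gene lists and tests were chosen with earlier results of these data known. Named are members that passed in the limma fit above, genes of mitochondrial DNA, the most abundant nuclear subunit of each complex, the subunit c genes and alternative isoforms. From other lists, members that passed and the most abundant gene are named. Ndufa1, Ndufa2, Ndufs3, Ndufs5, Sdhd, Atp5s, Ndufaf7, Atp5k, Atp5o, Atp5j, Atp5j2 and the genes lower in all null libraries were named after their values were seen. The alternatives tried were other scalings, pseudocounts, filters and fits, the whole-series table, summing copies and leaving out libraries.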

Additional observations from a re-analysis of the deposited data

How the results depend on the processing

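The medians of nuclear subunits stayed below 0 against wild type under every alternative run. Those of mitochondrial members stayed above 0 in every run that fitted these genes, which TPM rescaled without them did not. Median-of-ratios scaling moved the nuclear medians to -0.54, -0.50 and -0.35 and the mitochondrial ones to 0.29, 0.02 and 0.05 (Scribble null, Yap1 Taz null and triple null), quantile normalization moved the mitochondrial median in Yap1 Taz null to 0.33, and the whole-series table gave -0.22 (nuclear) and 0.38 (mitochondrial) in Yap1 Taz null and -0.16 (mitochondrial) in triple null against Yap1 Taz null. The counts of members that passed were less stable. In Scribble null, where 4 passed, the count was 7 under median-of-ratios scaling, 1 with TPM rescaled without genes of mitochondrial DNA, with no filter on low values or with no trend, 0 with only the 2 groups fitted, and 2 with the whole-series table or with copies summed. In Yap1 Taz null, where 4 passed, it was 2 with no filter and 1 with no trend, with only the 2 groups or with the whole-series table. In triple null, where 1 passed, it was 0 with rescaled TPM, no filter or no trend. Between triple null and Scribble null it was 1 (mt-Atp6) under quantile normalization. Rescaled TPM leaves the genes of mitochondrial DNA out of the fit, so mt-Nd3, mt-Atp6 and mt-Co2 could not pass there. The 0 in triple null under that setting was thus fixed in advance. In Scribble null Atp5g1 stayed called with rescaled TPM (log2 change -0.99, limma adjusted p = 0.0170). Added after seeing the data, leaving mt-Nd3 out of the count gave 0 in triple null, by construction, since it was the only member that passed there. Leaving the Yap1 Taz null group out of the fit, also added then, gave 2 in Scribble null. The cause of the differences that were not fixed in advance was not tested.

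With 1 library left out, counts ranged from 0 to 2 in Scribble null, 0 to 4 in Yap1 Taz null and 0 to 1 in triple null, and were 0 between null genotypes. Nuclear medians ranged from -0.41 to -0.38, -0.40 to -0.31 and -0.25 to -0.19 against wild type, 0.12 to 0.16 (triple null against Scribble null), 0.06 to 0.17 (triple null against Yap1 Taz null) and -0.12 to -0.04 (Scribble null against Yap1 Taz null). Mitochondrial medians ranged from 0.35 to 0.58, 0.16 to 0.22, 0.10 to 0.25, -0.37 to -0.13, -0.20 to -0.02 and 0.13 to 0.34 in the same order.

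With the replicate number as a block, 2, 3 and 1 members passed against wild type, without mt-Atp6 and mt-Co2 in Scribble null and without Cox5a in Yap1 Taz null (limma adjusted p = 0.0575, 0.0719 and 0.0633). Same-numbered libraries had correlations of deviations between -0.0531 and 0.0257, so the numbers were not taken to pair them.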

Other observations

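The mitochondrial gene groups given in this section lay, by their medians, between the nuclear subunits and the median of all genes. The electron carriers and the regulators of biogenesis above did not. Over 49 genes of the large subunit of the mitochondrial ribosome the medians were -0.28, -0.12 and -0.13 (log2 change from wild type in Scribble null, Yap1 Taz null and triple null), and 23, 19 and 15 of them were below wild type in both libraries (46.9%, 38.8% and 30.6%, against 15.7%, 14.5% and 14.2% of all genes). Mrpl14, a protein of the large subunit, was the only one that passed, 2.04% of the list where 1.3% of all genes passed in Scribble null, a share near the background. It was 69.1 and 53.2 TPM in wild type, 22.2 and 27.9 TPM in Scribble null, 32.4 and 43.1 TPM in Yap1 Taz null, and 51.6 and 44.7 TPM in triple null, with a log2 change of -1.25 in Scribble null (limma adjusted p = 0.0430). All null libraries lay below wild type. Mrpl52, the most abundant, was at 278 to 346 TPM with overlapping groups. Over 29 genes of the small subunit the medians were -0.25, -0.21 and -0.18, and none passed. Mrps21, the most abundant, had log2 changes of -0.07, -0.23 and -0.06.

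Over 24 import and carrier genes the medians were -0.32, -0.19 and -0.14, with 14, 11 and 9 below wild type in both libraries (58.3%, 45.8% and 37.5%, against 15.7%, 14.5% and 14.2% of all genes). The phosphate carrier Slc25a3, the most abundant, was 404 and 367 TPM in wild type and 344 to 405 TPM in the null libraries. Over 17 genes of the citric acid cycle and pyruvate dehydrogenase the medians were -0.08, -0.07 and -0.09, and over 11 antioxidant and uncoupling genes -0.17, 0.12 and -0.02. The most abundant of these, the malate dehydrogenase gene Mdh2 and the uncoupling protein gene Ucp2, had changes of -0.14, 0.03 and 0.06, and of 0.06, 0.14 and 0.10. None of the import, cycle or antioxidant genes passed the test.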
